A study of Mus musculus with 18 samples.

Results

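The interferon regulatory factors (Irf genes) were described in 3 populations of mouse spleen cells. All probe sets of the Affymetrix U74A, U74B and U74C arrays whose gene symbol in the platform annotation is Irf1 to Irf9 were taken, which gave 11 of the 36701 probe sets left after control probe sets were removed. They lie on U74A (9 probe sets) and U74C (2 probe sets), with 0 on U74B, and they represent 7 of 15964 genes with a probe set of their own: Irf1, Irf3, Irf4, Irf5, Irf7, Irf8 and Irf9. Expression of Irf2 was not analysed here, since no probe set had it as its only symbol in the annotation used. The populations were the killer dendritic cells that produce interferon, called IKDC, the plasmacytoid cells, called PDC, and the conventional dendritic cells, called cDC, which the submitters named as the control. Each had 2 separately prepared samples, numbered 1 and 2, and each of the 6 samples was hybridised to all 3 array types. The labels give no treatment for any sample. The sources used here do not give the mouse strain, sex or age, the sorting gates, or whether a sample pooled animals.

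Irf proteins share a DNA-binding domain that recognises GAAA-type elements in the promoters of interferons and interferon-induced genes. Irf3 and Irf7 are activated downstream of nucleic acid sensors and switch on type I interferon genes, and plasmacytoid dendritic cells are known for keeping Irf7 at a high level without infection. Irf4 and Irf8 are expressed mainly in blood cells, bind weakly on their own and act with partners such as PU.1 (Spi1), Spi-B (Spib) and Batf factors, and mice need Irf8 to form several dendritic cell subsets.

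The stretch from 250 bases before to 50 bases after an annotated gene start is shown for Irf8, Irf7 and Irf5, whose expression differed most between the populations, and for Irf1, whose window also held a match to a motif searched. The sequences come from RefSeq on build GRCm38.p6, 5′ to 3′ along the gene's strand. Irf8 is at chr8:120736108-120736407 on the plus strand, Irf7 at chr7:141266375-141266674 on the minus strand, Irf5 at chr6:29526375-29526674 on the plus strand and Irf1 at chr11:53769764-53770063 on the plus strand. For Irf8 and Irf1, the table holds 2 windows each, and the one with matches is shown, the other, at chr8:120738389-120738688 and at chr11:53770223-53770522, having 0. Capitals mark matches to the Stat-binding GAS motif.
Irf8: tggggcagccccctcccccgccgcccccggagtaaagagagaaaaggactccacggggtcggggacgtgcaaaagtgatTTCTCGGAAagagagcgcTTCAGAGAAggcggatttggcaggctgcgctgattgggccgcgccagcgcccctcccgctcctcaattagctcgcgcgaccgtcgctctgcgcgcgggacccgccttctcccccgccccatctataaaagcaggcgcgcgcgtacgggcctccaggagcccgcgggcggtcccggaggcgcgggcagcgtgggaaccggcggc
Irf7: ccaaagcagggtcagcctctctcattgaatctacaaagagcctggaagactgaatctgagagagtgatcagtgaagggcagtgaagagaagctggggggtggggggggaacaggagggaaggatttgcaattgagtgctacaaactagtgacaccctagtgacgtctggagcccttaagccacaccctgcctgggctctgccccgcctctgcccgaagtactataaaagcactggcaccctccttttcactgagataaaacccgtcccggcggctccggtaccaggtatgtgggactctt
Irf5: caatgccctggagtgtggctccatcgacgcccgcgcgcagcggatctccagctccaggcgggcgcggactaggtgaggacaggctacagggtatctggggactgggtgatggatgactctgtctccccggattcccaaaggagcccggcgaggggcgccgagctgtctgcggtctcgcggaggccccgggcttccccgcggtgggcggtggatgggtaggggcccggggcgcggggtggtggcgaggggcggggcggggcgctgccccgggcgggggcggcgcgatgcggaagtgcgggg
Irf1: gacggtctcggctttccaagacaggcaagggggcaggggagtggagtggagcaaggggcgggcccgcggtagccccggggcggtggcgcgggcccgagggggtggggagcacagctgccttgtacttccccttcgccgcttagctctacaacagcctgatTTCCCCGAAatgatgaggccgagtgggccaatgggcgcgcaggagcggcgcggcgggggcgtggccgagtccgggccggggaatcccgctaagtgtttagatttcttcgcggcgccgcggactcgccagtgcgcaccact
Both strands were searched for the interferon-stimulated response element (GAAA, any 2 bases, GAAA), the composite Ets and Irf element (GGAA, any 2 bases, GAAA) and the GAS motif TTCNNNGAA, which may overlap one another. The Irf8 window shown held 2 GAS matches, TTCTCGGAA beginning at position -171 and TTCAGAGAA beginning at position -153 from its gene start, and the Irf1 window shown held 1, TTCCCCGAA beginning at position -90. A GAS match was present in 8.3% of the 32851 RefSeq promoter windows of this length, a response element in 3.44% and a composite element in 2.72%. Among the 11 windows of 8 Irf genes in the table, those with a GAS match were the Irf8 and Irf1 windows above and the Irf2 window at chr8:46739495-46739794, which also held 1 response element and 1 composite element. These letters were not found in the Irf7 and Irf5 windows. A match describes the sequence and is not a measured binding site.

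Expression was measured as signal intensity, a linear value that the authors scaled on each array to a target of 150, and compared as log2(signal + 16), a scale that understates the change of dim genes. A probe set was tested if its signal reached 60 on at least 2 of the 6 arrays, and it was called when the limma p, adjusted over all 23285 tested probe sets, was under 0.05. With 2 samples per population, every p-value sets a difference only against how far such samples scatter, which may be technical. This scatter was pooled over the populations and moderated over the probe sets of an array type. The number of arrays limits the precision. In bulk samples, fewer cells of a type and less RNA per cell cannot be told apart. Of the Irf probe sets 9 were tested, and in all 9 every one of the 6 signals was above the minimum, with 102.3 as the lowest. The remaining pair did not reach it: a second probe set for Irf3, with a highest signal of 47.3, and one for Irf5 on U74C, with a highest signal of 24.3.

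The 18 arrays had median signals of 51.7 to 87.3 and 3′ to 5′ signal ratios of Gapdh of 2.97 to 6.0, and the highest ratio belonged to PDC sample 1 on U74A. The summed signal of 9 NK cell markers was 50884.9 to 56366.0 in IKDC samples, 4025.9 to 5459.8 in PDC samples and 3306.3 to 4285.4 in cDC samples. All 9 were called higher in IKDC than in cDC, where 3.5% of all 12193 genes were, and than in PDC, where 2.71% were. The sum of 8 PDC markers was 1544.5 to 1662.4 in IKDC samples, 23684.8 to 26183.4 in PDC samples and 1394.8 to 1506.9 in cDC samples. The sum of 9 cDC markers was 5764.2 to 7638.3 in IKDC samples, 29631.4 to 30178.0 in PDC samples and 60535.6 to 70697.5 in cDC samples. Among markers of other cells, the sum of 4 erythroid genes was 14218.5 to 16888.1 in IKDC samples, 9412.7 to 22382.1 in PDC samples and 679.2 to 1685.8 in cDC samples. The sum of 5 neutrophil genes was 261.2 to 310.9, 211.6 to 771.1 and 794.9 to 1656.5 in IKDC, PDC and cDC samples, and that of 4 T cell genes was 566.8 to 921.2, 814.6 to 998.1 and 526.8 to 696.9. The part of these other cells in the Irf results was not tested.

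Irf8, which mice need to form plasmacytoid and CD8α+ dendritic cells, was highest in PDC, intermediate in cDC and lowest in IKDC. Its signal was 1668.4 and 1579.7 in IKDC samples, 8840.9 and 8504.2 in PDC samples, and 3710.3 and 3269.3 in cDC samples. No sample overlapped with one of another population. In IKDC the mean signal was 1624 ± 62.7, against 8673 ± 238.1 in PDC (SD, n = 2 each), a log2 difference of -2.41 ± 0.26 (SE, 95% interval -2.97 to -1.84, limma adjusted p = 0.000247). Against cDC, which averaged 3490 ± 311.8 (SD, n = 2), the difference was -1.09 ± 0.26 in IKDC (SE, limma adjusted p = 0.03) and 1.31 ± 0.26 in PDC (SE, limma adjusted p = 0.0157). Both neighbouring steps in this order, IKDC below cDC and PDC above cDC, were therefore called. The IKDC difference from PDC passed in all 16 settings tried, with a largest adjusted p of 0.00443. The IKDC difference from cDC did not pass without the signal filter (adjusted p = 0.0784), with median centring (0.0767), with no intensity trend (0.0737), or without IKDC 1 (0.164), IKDC 2 (0.211), cDC 1 (0.14) or cDC 2 (0.0764). The PDC difference from cDC did not pass with no intensity trend (adjusted p = 0.0539) or without PDC 1 (0.0697), PDC 2 (0.0682), cDC 1 (0.0546) or cDC 2 (0.0925).

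**Figure D1:**
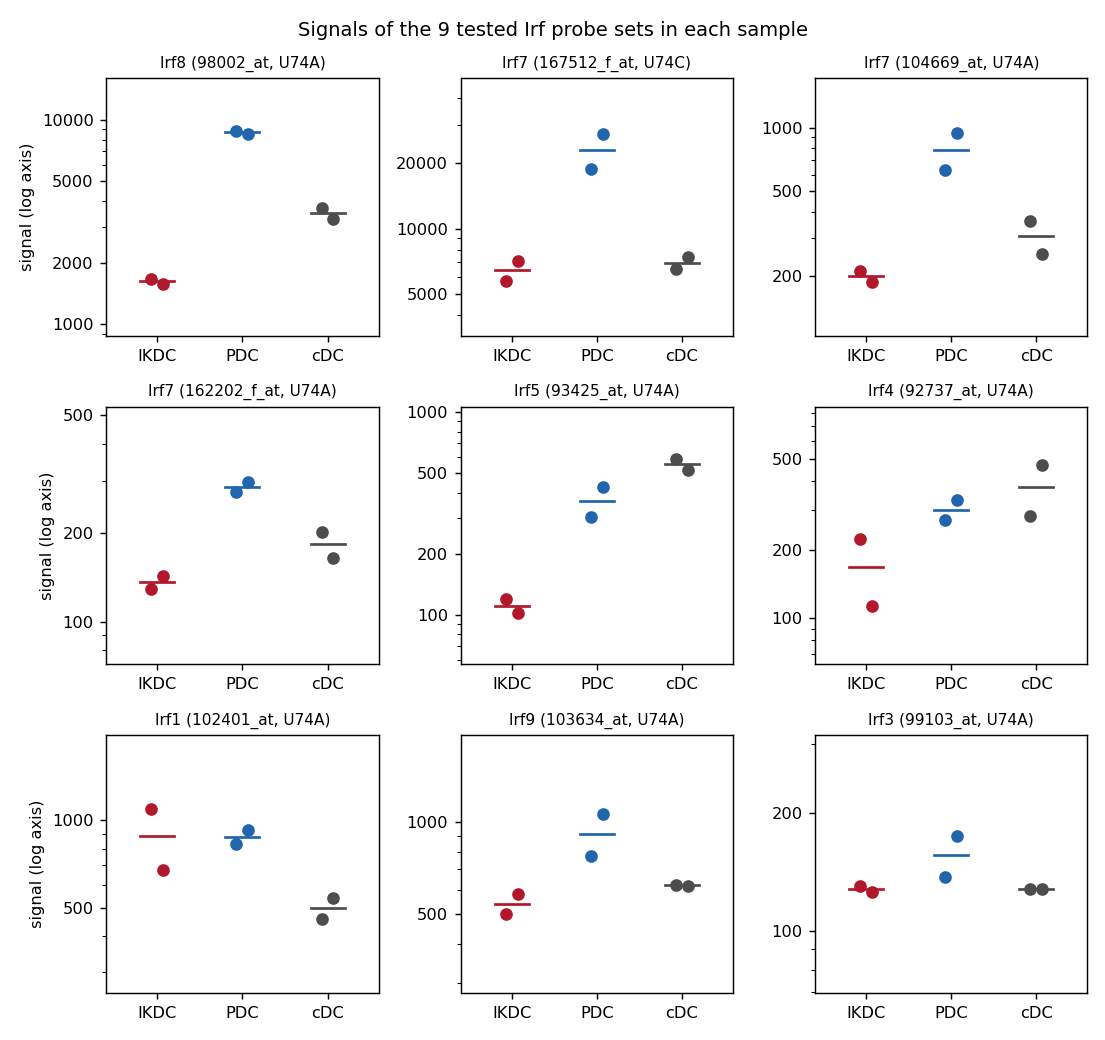
Signal intensity (log axis) of the tested Irf probe sets in each IKDC, PDC and cDC sample, with points for samples and short lines for group means. Irf8 and the 3 Irf7 probe sets are highest in both PDC samples, and Irf5 is lowest in both IKDC samples.

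Irf7, the factor that drives the bulk of type I interferon genes after infection, was highest in PDC by each of its 3 tested probe sets. The platform annotation assigns them to the same gene, and they are not replicates. Whether any of them also reads other transcripts was not checked. On the U74C probe set 167512_f_at, taken first by a rule that orders a gene's probe sets by mean signal, the signal was 5748.5 and 7099.0 in IKDC samples, 18788.4 and 27391.4 in PDC samples, and 6494.2 and 7375.0 in cDC samples. Both PDC samples lay above the other 4, and the IKDC and cDC samples overlapped. The log2 difference was 1.71 ± 0.25 in PDC against cDC (SE, 95% interval 1.15 to 2.27, limma adjusted p = 0.00364) and -1.83 ± 0.25 in IKDC against PDC (SE, limma adjusted p = 0.00168). IKDC and cDC differed by -0.12 ± 0.25 (SE, 95% interval -0.67 to 0.44, limma adjusted p = 0.859) and were not called apart.

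On U74A, the Irf7 probe set 104669_at had signals of 210.9 and 187.3 in IKDC samples, 627.8 and 947.3 in PDC samples, and 361.6 and 252.5 in cDC samples. The 3 populations did not overlap. The difference was -1.87 ± 0.31 in IKDC against PDC (SE, limma adjusted p = 0.00448) and 1.31 ± 0.31 in PDC against cDC (SE, limma adjusted p = 0.0417). The probe set 162202_f_at gave 128.8 and 142.6 in IKDC samples, 274.0 and 296.5 in PDC samples, and 201.2 and 163.9 in cDC samples, again with no overlap. Its differences had the same signs but were not called, at -0.99 ± 0.29 in IKDC against PDC (SE, limma adjusted p = 0.0936) and 0.61 ± 0.29 in PDC against cDC (SE, limma adjusted p = 0.365). The 3 Irf7 probe sets therefore disagreed on the call, not on the direction, of both differences. In IKDC against cDC neither U74A probe set was called. The difference there was -0.57 ± 0.31 for 104669_at (SE, limma adjusted p = 0.364) and -0.38 ± 0.29 for 162202_f_at (SE, limma adjusted p = 0.529).

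With no intensity trend, 167512_f_at missed the threshold in IKDC against PDC (adjusted p = 0.0787) and in PDC against cDC (0.107), and without PDC 2 it missed it in PDC against cDC (0.0522). The 104669_at difference between IKDC and PDC was lost without IKDC 2 (adjusted p = 0.0562). Its difference between PDC and cDC was lost in 10 settings, with adjusted p from 0.0504 with a pseudocount of 1 to 0.272 without cDC 2.

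Irf5, which acts after Toll-like receptors in inflammatory cytokine production, was lowest in IKDC. Its signal was 119.5 and 102.3 in IKDC samples, 301.5 and 426.6 in PDC samples, and 587.7 and 514.0 in cDC samples. The populations did not overlap, with cDC highest and PDC between. IKDC averaged 110.9 ± 12.2 against 550.9 ± 52.1 in cDC (SD, n = 2 each), a log2 difference of -2.16 ± 0.29 (SE, 95% interval -2.8 to -1.51, limma adjusted p = 0.00113). This call held in all 16 settings, with a largest adjusted p of 0.019. Against PDC, IKDC differed by -1.57 ± 0.29 (SE, limma adjusted p = 0.00973), which did not pass without IKDC 1 (adjusted p = 0.0657), IKDC 2 (0.118) or PDC 2 (0.0505). The step between the neighbours PDC and cDC, -0.59 ± 0.29 (SE, 95% interval -1.24 to 0.05, limma adjusted p = 0.39), was not called.

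The summed signal of 9 monocyte and macrophage markers had the same order as Irf5, at 609.7 to 631.1 in IKDC samples, 1050.0 to 1441.7 in PDC samples and 5162.4 to 6314.4 in cDC samples. In both IKDC samples 4 of them (C1qa, Fcgr1, Adgre1 and Vcam1) were under 60, in both PDC samples C1qa and Adgre1 were, and in both cDC samples 0 were. Of the 9, 8 were called lower in IKDC than in cDC, where 4.07% of all 12193 genes were, 6 lower in PDC than in cDC, where 2.75% of genes were and Irf5 was not called, and 1 lower in IKDC than in PDC, where 3.17% of genes were and Irf5 was called. The summed cDC markers above had the same order as Irf5 too. Of those 9, 7 were called lower in IKDC than in cDC and 5 lower in PDC than in cDC, with 0 higher in either. In IKDC against PDC 6 were called lower and 1 higher, where 3.17% and 2.71% of genes were. The part of either marker set in the Irf5 result was not tested. The sum of 6 B cell markers was 777.3 to 2011.3 in IKDC samples, 1905.0 to 1978.5 in PDC samples and 785.1 to 907.2 in cDC samples. In PDC against cDC 1 of the 6 was called higher (Blnk, an adaptor of B cell receptor signalling), where 2.25% of genes were. There 1 was called lower (Cd22, an inhibitory receptor), where 2.75% of genes were, and the median log2 difference was 0.1. In IKDC against PDC 0 of the 6 were called higher, where 2.71% of genes were, and 1 lower (Blnk), where 3.17% were, with a median of 0.96. The part of B cells in the Irf8 and Irf7 levels of PDC was not tested.

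Irf4, which dendritic cells use for the subset that presents to helper T cells, had signals of 223.7 and 112.9 in IKDC samples, 270.1 and 331.6 in PDC samples, and 283.1 and 472.5 in cDC samples. Both IKDC samples lay below the other 4, while PDC and cDC overlapped. The log2 difference was -1.12 ± 0.37 in IKDC against cDC (SE, 95% interval -1.93 to -0.31, limma adjusted p = 0.116) and -0.84 ± 0.37 in IKDC against PDC (SE, limma adjusted p = 0.316). Neither was called. In PDC against cDC it was -0.28 ± 0.37 (SE, limma adjusted p = 0.821), and 0.08 without cDC 2.

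Irf1, which is induced by interferon γ, had signals of 1092.6 and 672.9 in IKDC samples, 828.0 and 929.1 in PDC samples, and 457.1 and 539.3 in cDC samples. Both cDC samples lay below the other 4, and the IKDC samples spanned the PDC samples. Neither difference from cDC was called. The differences from cDC were 0.77 ± 0.3 in IKDC (SE, 95% interval 0.12 to 1.42, limma adjusted p = 0.185) and 0.8 ± 0.3 in PDC (SE, limma adjusted p = 0.217). Between IKDC and PDC the difference was -0.03 ± 0.3 (SE, limma adjusted p = 0.981), and it was 0.31 without IKDC 2, 0.05 without PDC 2 and 0.10 with median centring.

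Irf9, the DNA-binding subunit of the complex with Stat2 that carries the type I interferon response, had signals of 500.2 and 584.1 in IKDC samples, 771.4 and 1059.7 in PDC samples, and 624.2 and 619.8 in cDC samples. The 3 populations did not overlap, in the order PDC, cDC, IKDC. Its differences were -0.73 ± 0.28 in IKDC against PDC (SE, limma adjusted p = 0.225), 0.53 ± 0.28 in PDC against cDC (SE, limma adjusted p = 0.42) and -0.2 ± 0.28 in IKDC against cDC (SE, limma adjusted p = 0.761). None of the 3 was called.

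Irf3, which is present in most cells and is activated by phosphorylation, had signals of 130.1 and 125.6 in IKDC samples, 137.4 and 174.8 in PDC samples, and 128.3 in both cDC samples. The IKDC samples lay on both sides of the cDC value, and both PDC samples lay above the other 4. The 95% interval of the log2 difference was -0.67 to 0.66 for IKDC against cDC, -0.42 to 0.91 for PDC against cDC and -0.92 to 0.42 for IKDC against PDC, and the smallest limma adjusted p was 0.795. The second Irf3 probe set, 162425_f_at, was at 12.6 and 40.2 in IKDC samples, 44.1 and 38.6 in PDC samples, and 27.1 and 47.3 in cDC samples, and the second Irf5 probe set, 169143_i_at, was at 15.6 and 3.4, 9.6 and 5.4, and 7.2 and 24.3 in IKDC, PDC and cDC samples. All these values are under the minimum, so they give no order.

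**Figure D2:**
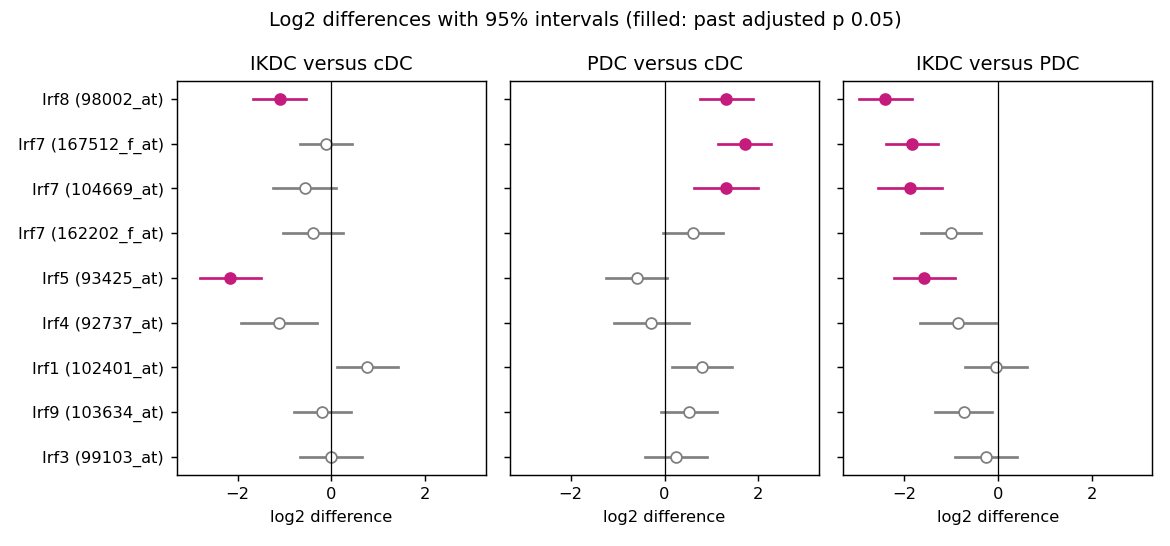
Log2 difference in signal with its 95% interval for each tested Irf probe set in the 3 comparisons, with filled points for called differences. The largest are -2.41 for Irf8 in IKDC against PDC and -2.16 for Irf5 in IKDC against cDC.

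Counted over the 9 tested probe sets, IKDC against cDC had 2 calls, both lower in IKDC (Irf8 and Irf5), where 5.6% of all tested probe sets were called, 2.68% higher and 2.92% lower. At an unadjusted p under 0.05 there were 4 of the 9, where 18.9% of all probe sets were. The count was 1 without the signal filter, with median centring and with no intensity trend, and 1 to 2 when 1 sample was left out. In this comparison 6 probe sets were lower in both IKDC samples than in both cDC samples, where 26.7% of all probe sets were, and 1 (Irf1) was higher, where 24.9% were. The median log2 difference of the 9 was -0.38, against -0.01 for all probe sets.

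In PDC against cDC there were 3 calls, all higher in PDC (Irf8 and the Irf7 probe sets 167512_f_at and 104669_at), where 3.65% of all probe sets were called, 1.73% higher and 1.92% lower. At an unadjusted p under 0.05 there were 4 of the 9, where 14.9% of all probe sets were. Limma without the intensity trend made 0 calls, with 4 at an unadjusted p under 0.05 (14.1% of all probe sets). Leaving out 1 sample gave 0 (without PDC 2, with 4 at an unadjusted p under 0.05, where 3267 of the 23285 probe sets were), 1 (without cDC 1 or without cDC 2) or 2. Here 7 probe sets were higher in both PDC samples than in both cDC samples, where 20.5% of all probe sets were, and 1 (Irf5) was lower, where 20.8% were. The median log2 difference of the 9 was 0.61, against -0.01 for all probe sets.

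In IKDC against PDC there were 4 calls, all lower in IKDC (Irf8, Irf5 and the same pair of Irf7 probe sets), where 4.45% of all probe sets were called, 2.06% higher and 2.39% lower. At an unadjusted p under 0.05 there were 7 of the 9, where 14.5% of all probe sets were, and leaving out 1 sample gave 2 to 4 calls, 2 of them without IKDC 2. Here 8 probe sets were lower in both IKDC samples than in both PDC samples, where 21.9% of all probe sets were, 0 were higher, where 21.7% were, and Irf1 overlapped. The median log2 difference of the 9 was -0.99, against -0.02 for all probe sets. In each comparison this median was the value of the Irf7 probe set 162202_f_at. Irf7 enters with 3 probe sets, so calls, overlaps and medians here are of probe sets, not of genes. By gene, the calls were Irf8 and Irf5 in IKDC against cDC, Irf8 and Irf7 in PDC against cDC, and Irf8, Irf5 and Irf7 in IKDC against PDC. The 3 comparisons share samples, so their counts are not independent of one another. At a signal minimum of 200, 8 Irf probe sets and 10750 of all probe sets remained. Of the 10750, 25.4% had an unadjusted p under 0.05 in IKDC against cDC, 20.4% in PDC against cDC and 20.5% in IKDC against PDC. These shares are larger than those over all tested probe sets, which include dimmer ones than the Irf probe sets. In the same order 1216, 845 and 997 were called, and the Irf calls stayed at 2, 3 and 4.

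**Figure D3:**
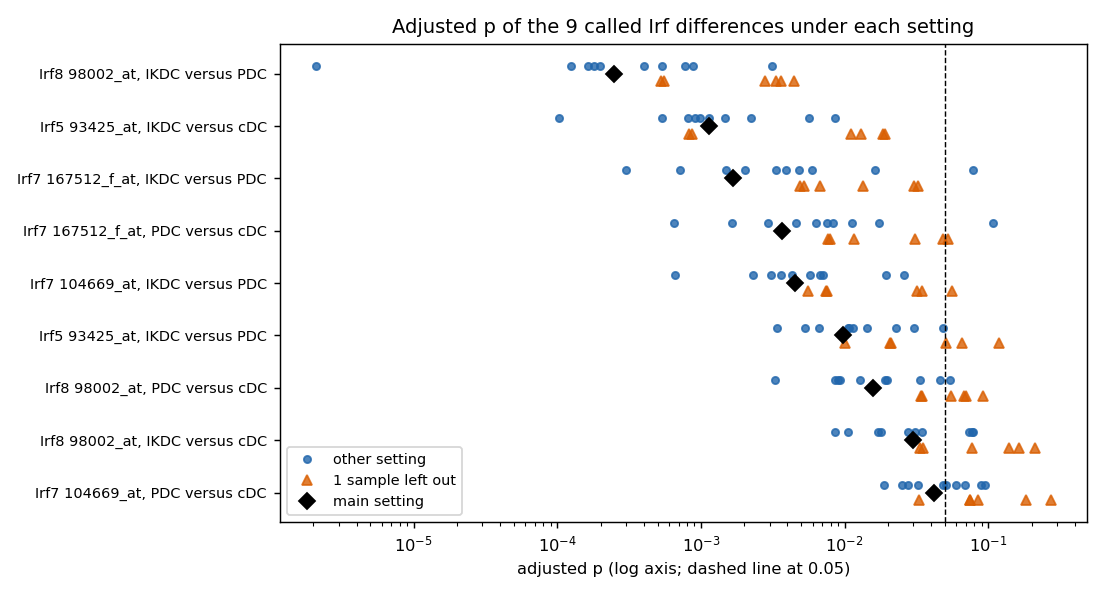
Adjusted p (log axis) of each of the 9 called Irf differences under every setting, with a diamond for the value as reported, circles for other settings, triangles for fits without 1 sample and a dashed line at 0.05. Irf8 in IKDC against PDC and Irf5 in IKDC against cDC stay left of the line throughout, and the other 7 cross it in at least 1 setting.

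The genes of the same array whose pattern over the 6 samples was most like that of Irf8, Irf7 and Irf5 were found by the root mean square gap between log2 values, each centred on its own mean. For Irf8, whose log2 signal spanned 2.47, the nearest genes among 6349 tested probe sets on U74A were Rnase4 (gap 0.136), Ramp1 (0.173) and Adssl1 (0.224). Ramp1, a subunit of receptors for calcitonin gene-related peptide, had signals of 364.1 and 283.5 in IKDC samples, 1882.5 and 1380.4 in PDC samples, and 624.1 and 545.9 in cDC samples. Rnase4 was under 60 in all IKDC and cDC samples, so its gap and rank are uncertain. For Irf7 on U74C, which spanned 2.25, the nearest genes among 5183 tested probe sets were Mkln1os (0.185), Col23a1 (0.24) and Igf1r (0.252). Igf1r, the receptor for insulin-like growth factor, had signals of 261.0 and 278.7 in IKDC samples, 504.4 and 1031.8 in PDC samples, and 259.0 and 239.0 in cDC samples, while Mkln1os was under 60 in all IKDC and cDC samples and Col23a1 in both IKDC samples and 1 cDC sample, which leaves their gaps uncertain. For Irf5, which spanned 2.35, the nearest on U74A were Pip4k2a (0.134), Ifi207 (0.155) and Tmem50b (0.172). Pip4k2a, a phosphoinositide kinase, had signals of 400.6 and 435.5 in IKDC samples, 971.9 and 1283.5 in PDC samples, and 1835.8 and 1860.8 in cDC samples, in the same order as Irf5. Ifi207 was under 60 in both IKDC samples, so its gap is uncertain too. These gaps describe 6 samples and carry no test.

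**Figure D4:**
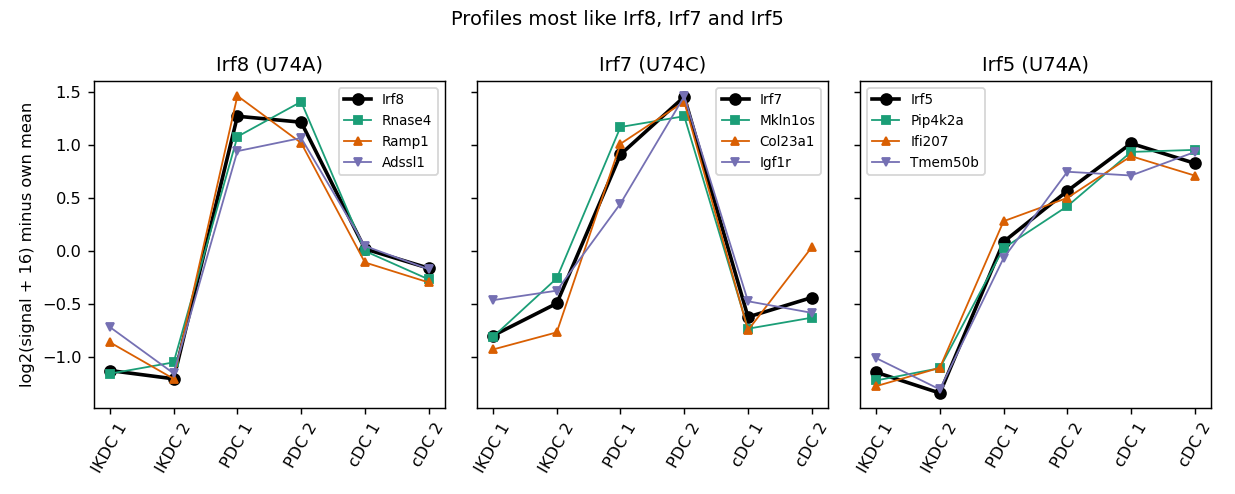
Log2 signal in each sample, centred on its mean over the 6 samples, for Irf8, Irf7 and Irf5 and for the 3 genes of the same array with the smallest root mean square gap to each. The gaps run from 0.134 for Pip4k2a to 0.252 for Igf1r.

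Other genes of the pathway were counted with 1 probe set per gene, the one with the highest mean signal. Over the 12193 genes so represented, 3.5% were called higher and 4.07% lower in IKDC against cDC, 2.25% and 2.75% in PDC against cDC, and 2.71% and 3.17% in IKDC against PDC. The median over all genes lay between 0 and 0.01 in each.

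Upstream of the Irf proteins, 17 of 20 listed sensors and adaptors were tested. In IKDC against PDC 1 was called higher and 3 lower, counts that did not change when any 1 sample was left out, and the list's median log2 difference was -0.34. Tlr7, the endosomal receptor for single-stranded RNA, averaged 23.6 ± 3.3 in IKDC and 403.9 ± 175.5 in PDC (SD, n = 2 each), which is at least 6.41-fold lower in IKDC (limma adjusted p = 0.000331), the IKDC signal being taken at no less than the minimum of 60. Unc93b1, which carries nucleic-acid-sensing Toll-like receptors to endosomes, was at least 4.92-fold lower in IKDC than in PDC (limma adjusted p = 0.000917). Slc15a4, an endolysosomal transporter needed for Toll-like receptor signalling in plasmacytoid cells, averaged 296.3 ± 13.3 in IKDC and 1056 ± 272 in PDC (log2 -1.76 ± 0.26 SE, limma adjusted p = 0.00362). Ddx58, the cytosolic RNA sensor RIG-I, went the other way, at 1014 ± 135.6 in IKDC and 271.4 ± 9.0 in PDC (log2 1.84 ± 0.27 SE, limma adjusted p = 0.00343). The other comparisons were less stable: 2 were called higher and 5 lower in IKDC against cDC (0 and 1 without IKDC 1 or without cDC 2, 0 and 2 without IKDC 2 or without cDC 1), and 1 higher and 2 lower in PDC against cDC (0 and 0 without cDC 1 or without cDC 2, 0 and 2 without PDC 1, 1 and 1 without PDC 2). Their medians were -0.09 and 0.12.

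Of the interferons, 3 of 10 listed were tested, and Ifna2, Ifna4, Ifna7, Ifna11 and Ifnb1 did not reach the minimum. Ifna5 averaged 95.2 ± 72.6 in IKDC, 115.1 ± 105.4 in PDC and 86.2 ± 6.0 in cDC (SD, n = 2 each). Ifna9 averaged 88.1 ± 40.2, 66.3 ± 4.7 and 66.8 ± 36.3 in the same order. The limma adjusted p was 0.732 or more for both genes in each comparison. Probe sets of these close paralogs may read one another's transcripts. Ifng, the type II interferon made by NK cells, averaged 203.2 ± 36.6 in IKDC, 27.2 ± 14.6 in PDC and 37.9 ± 1.5 in cDC (SD, n = 2 each). It was at least 3.36-fold higher in IKDC than in PDC (limma adjusted p = 0.00546) and than in cDC (0.0132). Ifng reached the minimum only in the IKDC samples, so it was tested because of the group then called higher. Its adjusted p-values do not allow for that selection. The call against PDC was lost without IKDC 1 (adjusted p = 0.138) or without IKDC 2 (0.0667), and that against cDC without any 1 of the IKDC and cDC samples.

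Of 17 receptor and JAK-STAT genes 16 were tested. In IKDC against cDC 3 were called higher and 1 lower, in PDC against cDC 1 higher and 0 lower, and in IKDC against PDC 3 higher and 2 lower, with medians of 0.31, 0.1 and 0.27. Stat4, which carries interleukin 12 and interferon signals in NK and T cells, averaged 1176 ± 29.6 in IKDC, 97.6 ± 66.5 in PDC and 102.8 ± 27.7 in cDC (SD, n = 2 each). Its log2 difference was 3.53 ± 0.4 against PDC (SE, limma adjusted p = 0.000341) and 3.35 ± 0.4 against cDC (SE, limma adjusted p = 0.000465), and both calls held in all settings. Stat2, the partner of Irf9, averaged 339.1 ± 41.4 in IKDC and 1046 ± 289.3 in PDC (SD, n = 2 each, log2 -1.56 ± 0.27 SE, limma adjusted p = 0.00878), a call that was lost with no intensity trend (adjusted p = 0.0662), without IKDC 1 (0.08) and without PDC 2 (0.0513) and that its other tested probe set did not pass. Leaving out 1 sample gave 2 to 3 higher and 0 to 2 lower in IKDC against cDC, 0 to 1 in each direction in PDC against cDC, and 1 to 3 higher and 0 to 3 lower in IKDC against PDC. The single call in PDC against cDC was lost without PDC 2 or without cDC 1.

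Among 16 tested of 19 DNA-binding partners and corepressors, 1 was called higher and 5 lower in IKDC against cDC, 2 higher and 4 lower in PDC against cDC, and 0 higher and 4 lower in IKDC against PDC. Their medians were -0.31, -0.38 and -0.02. Spi1, the PU.1 factor with which Irf4 and Irf8 bind composite elements, averaged 68.3 ± 25.4 in IKDC, against 687.6 ± 100.6 in cDC (SD, n = 2 each, log2 -3.09 ± 0.32 SE, limma adjusted p = 0.00019). Batf3, the partner of Irf8 in CD8α+ dendritic cells, averaged 80.3 ± 4.2 in IKDC, 85.9 ± 37.5 in PDC and 1111 ± 17.2 in cDC (SD, n = 2 each), and was called lower in IKDC (log2 -3.55, limma adjusted p = 8.17e-05) and in PDC (log2 -3.52, limma adjusted p = 0.000152). Spib, the Ets factor of plasmacytoid cells, averaged 178.1 ± 86.8 in IKDC, 2235 ± 1003 in PDC and 72.7 ± 19.7 in cDC (SD, n = 2 each). It was called lower in IKDC than in PDC (log2 -3.54, limma adjusted p = 0.000346) and higher in PDC than in cDC (log2 4.61, limma adjusted p = 9.71e-05), and its other tested probe set passed in the first of these. Tcf4, the E protein that maintains plasmacytoid identity, averaged 453.1 ± 27.2 in IKDC, 3663 ± 625.9 in PDC and 513.6 ± 55.6 in cDC (SD, n = 2 each), with called differences of -2.96 in IKDC against PDC and 2.79 in PDC against cDC. Its other tested probe set was called in the same direction in both comparisons. The calls named here for Spi1, Batf3, Spib and Tcf4 held in all settings. Leaving out 1 sample gave 0 to 1 higher and 3 to 5 lower in IKDC against cDC, 2 to 3 and 2 to 4 in PDC against cDC, and 0 and 2 to 3 in IKDC against PDC, with the lowest counts of lower genes without IKDC 2 in the first, without cDC 1 in the second and without IKDC 2 or PDC 1 in the third.

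**Figure D5:**
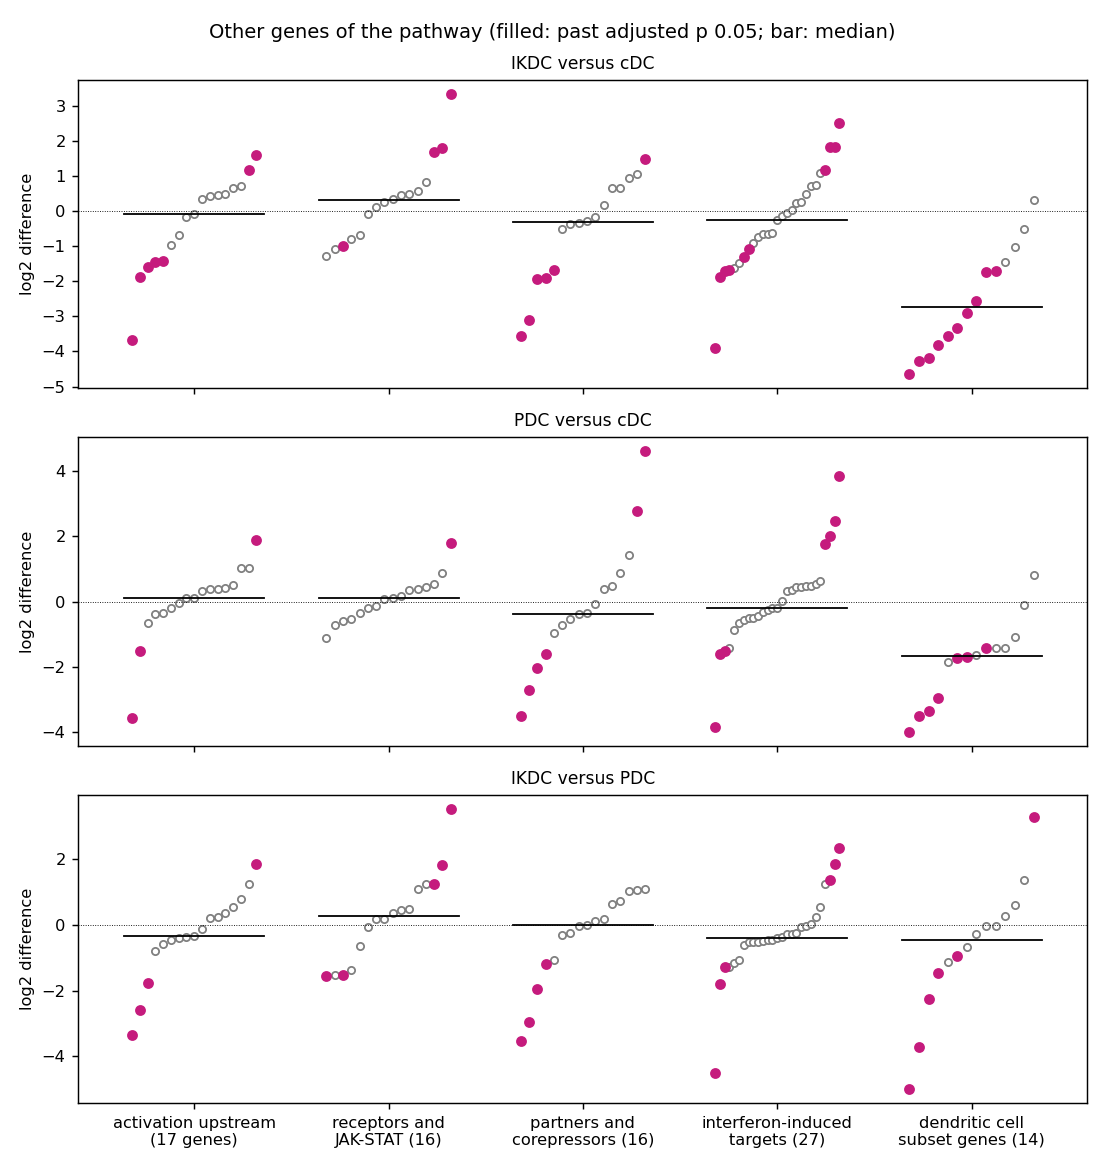
Log2 difference of each tested gene in 5 pathway lists for the 3 comparisons, with filled points for called genes and a bar at the list's median. The lowest median, -2.73, is that of the dendritic cell subset genes in IKDC against cDC, where 10 of 14 are called lower.

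Interferon-induced target genes had calls in both directions. Of 27 tested of 38, 4 were called higher and 6 lower in IKDC against cDC, 4 higher and 3 lower in PDC against cDC, and 3 in each direction in IKDC against PDC, with medians of -0.26, -0.18 and -0.4. Bst2, a tethering factor that is also a surface marker of mouse plasmacytoid cells, averaged 333.2 ± 22.1 in IKDC, 8114 ± 2059 in PDC and 538.0 ± 100.8 in cDC (SD, n = 2 each). It was called lower in IKDC than in PDC (log2 -4.52, limma adjusted p = 1.76e-05) and higher in PDC than in cDC (log2 3.86, limma adjusted p = 6.2e-05). Gbp3, an interferon γ-induced GTPase, averaged 538.7 ± 4.5 in IKDC and 140.5 ± 9.5 in cDC (SD, n = 2 each, log2 1.83 ± 0.28 SE, limma adjusted p = 0.00234). Cxcl9, a chemokine induced by interferon γ, averaged 6.8 ± 5.0 in IKDC, 7.7 ± 6.1 in PDC and 317.0 ± 0.7 in cDC (SD, n = 2 each). It was at least 5.28-fold lower in each of IKDC and PDC than in cDC (limma adjusted p = 0.000496 in IKDC and 0.000784 in PDC). Cxcl9 reached the signal minimum only in the cDC samples, so it was tested because of the higher group in both calls. Its adjusted p-values do not allow for that selection. Leaving out 1 sample gave 1 to 4 higher and 1 to 7 lower in IKDC against cDC, 2 to 3 higher and 1 to 3 lower in PDC against cDC, and 1 to 3 in each direction in IKDC against PDC. In IKDC against cDC the counts fell to 2 or fewer in each direction without any 1 of the IKDC and cDC samples. Without PDC 2 or cDC 1 or cDC 2 there were 2 higher and 1 to 2 lower in PDC against cDC, and without IKDC 1 or IKDC 2 there was 1 in each direction in IKDC against PDC, where 1 was lower without PDC 2.

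Of 18 genes of dendritic cell subsets that need Irf4 or Irf8 in mice, 14 were tested. The list holds none of the PDC markers above, so its counts do not cover the genes that mark plasmacytoid cells. In IKDC against cDC 0 were called higher and 10 lower, with a median log2 difference of -2.73. In PDC against cDC 0 were called higher and 7 lower, with a median of -1.66, and in IKDC against PDC 1 was called higher and 5 lower, with a median of -0.47. Cadm1, an adhesion molecule of CD8α+ dendritic cells, averaged 202.4 ± 14.5 in IKDC, 7032 ± 790.6 in PDC and 3960 ± 538.6 in cDC (SD, n = 2 each), and was called lower in IKDC than in PDC (log2 -5.01, limma adjusted p = 7.68e-06) and than in cDC (log2 -4.18, limma adjusted p = 1.79e-05). Cd300a, an inhibitory receptor, averaged 409.7 ± 4.5 in IKDC and 3195 ± 276.8 in cDC (SD, n = 2 each, log2 -2.91, limma adjusted p = 6.54e-05). Id2, the inhibitor of E proteins, averaged 3396 ± 545.0 in IKDC, 343.1 ± 127.3 in PDC and 2693 ± 165.7 in cDC (SD, n = 2 each), and was the gene called higher in IKDC than in PDC (log2 3.29, limma adjusted p = 8.94e-05). Leaving out 1 sample gave 7 to 11 lower in IKDC against cDC, 4 to 7 lower in PDC against cDC, with 4 without cDC 1, and 4 to 5 lower in IKDC against PDC. Batf3 stands in both this list and the partner list, Ciita in this and the target list, and Ddx58 and Ifih1 in both the upstream and the target list. The subset genes include markers by which cDC are defined. The summed cDC markers above moved the same way, but they share Wdfy4 and Ccr7 with this list, and their part in these counts was not tested. Of the PDC markers above, Tlr9 stands in the upstream list, Spib and Tcf4 in the partner list and Bst2 in the target list.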

How the data were processed

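Per the labels' protocols, total RNA was amplified in a small-sample protocol that favours 3′ ends, and biotin-labelled RNA was hybridised. Per the labels, the authors computed the deposited signal intensities in GCOS 1.1.1 and scaled all of an array's probe sets to a target intensity, 150. MAS5 is the method named in the submitters' processing notes. The genome build behind the probe design was not used. Of 36701 probe sets, 29131 had 1 gene symbol in the platform annotation, 724 several and 6846 none, and those with several were not named.

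Each array type was fitted separately, as log2(signal + 16), with limma 3.58.1 in R 4.3.3 (lmFit, eBayes with an intensity trend), all 6 samples in 1 model with 3 residual degrees of freedom (median 10.5 after moderation). Benjamini-Hochberg adjustment ran over the 23285 probe sets that reached 60 on 2 or more arrays. The fit was tested on data simulated from U74A, in IKDC against cDC, with shifts planted only in bright probe sets. That test does not cover dim probe sets, U74B, U74C or the other comparisons. A group under 60 in both samples was taken at that minimum or above for a bound ("at least"), from means of log2 values. No test compared expression between array types or probe sets. Marker sums add the signals of different probe sets, also across array types, so bright probe sets weigh most in them. The likeness gaps compare centred profiles of probe sets within 1 array type. Mean signal served to choose which probe set stands for a gene.

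All Irf probe sets are named. From each list up to 4 genes with the smallest adjusted p in a comparison could be named. The members and lists were chosen with earlier results of these data known. Alternatives were pseudocounts of 1 and 64, no signal minimum or one of 200, quantile normalization, median centring, adjustment within array types, only the compared groups, no trend, a replicate block and leaving out each sample.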

Additional observations from a re-analysis of the deposited data

How the results depend on the processing

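Of the 27 Irf differences, the 9 called ones kept their sign in all 16 settings, 2 of them passed in each (Irf8 in IKDC against PDC, Irf5 in IKDC against cDC), and 0 of the other 18 passed in any. The Irf count in IKDC against cDC was 1 without the signal minimum, with median centring and with no intensity trend, and 1 to 2 with 1 sample left out. In PDC against cDC it was 0 with no trend by limma, with 4 of 9 at an unadjusted p under 0.05 (14.1% of all probe sets), and 0 to 2 with 1 sample left out. In IKDC against PDC it was 2 to 4 with 1 sample left out. Over all probe sets, leaving out 1 sample gave 593 to 1656 calls in IKDC against cDC, 327 to 719 in PDC against cDC and 493 to 869 in IKDC against PDC, with fewer residual degrees of freedom by construction. Signs turned in uncalled differences. Irf3 in IKDC against cDC was 0.021 with quantile normalization, 0.18 with median centring and -0.027 to 0.018 with 1 sample left out. Irf7 (167512_f_at) in IKDC against cDC was 0.052 with median centring and -0.27 to 0.037 with 1 sample left out. Irf1 in IKDC against PDC was 0.10 with median centring and -0.37 to 0.31 with 1 sample left out. With 1 sample left out Irf4 was -0.63 to 0.076 and Ifna5 -0.85 to 1.01, both in PDC against cDC. Median centring moved the median of all probe sets by 0.12, 0.05 and 0.07 in IKDC against cDC, PDC against cDC and IKDC against PDC. The causes were not tested.

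The labels tie no replicate number across populations, and same-numbered samples' deviations correlated at -0.086 to 0.235. With the number as a replicate block the Irf counts stayed at 2 in IKDC against cDC, 3 in PDC against cDC and 4 in IKDC against PDC, beside 1650, 1055 and 1223 calls over all probe sets. Of 55 called differences of pathway genes eligible by the naming rule, not all of which the text names, 31 passed in every setting and 0 turned sign. Unspiked bacterial control probe sets reached 45.2 on U74A, 122.7 on U74B and 148.7 on U74C, so the minimum of 60 is a weaker bound on U74B and U74C.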
